A study of Mus musculus with 7 samples.

Results

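Motile cilia are the beating hairs of multiciliated cells, which line the airways, the brain ventricles and the oviduct. This account covers 48 genes of their machinery in a bulk RNA-seq comparison of mouse sinoatrial node, the pacemaker tissue of the right atrium. The genes are those of a fixed list of 39 symbols, of which 38 have a row under that symbol, and all 10 rows named as axonemal dynein heavy chains (Dnah or Dnahc and a number). Of these 48 genes among the 15967 rows of the deposited table, 47 had a mean of at least 1 FPKM over both libraries and are called measured. FPKM is the number of sequenced fragments scaled to transcript length and library size, so levels can be compared between genes, and the values were taken as FPKM from the column layout of the table. The list was drawn up by gene function, with earlier results of these data known. Dnahc11 and Dnahc7b lay closest above it, with means of 1.31 and 1.38 FPKM, and Dnahc17 lay below it, with a mean of 0.456 FPKM. Pifo, the listed symbol with no row of its own, is described under the older symbol 1700027A23Rik and is not counted.

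Both libraries came from mice of strain Sv129 at 3 weeks after birth with floxed Baf250a alleles (gene symbol Arid1a, a DNA-binding subunit of BAF, which remodels chromatin). In the Cre library the mice also carried Hcn4CreERT2, a tamoxifen-activated recombinase expressed from the pacemaker channel gene Hcn4, and the tissue was taken on day 6 after tamoxifen. The control library of the day-6 pair had the floxed alleles and no Cre, and the labels do not state its treatment. With 1 library per genotype no difference below has a replicate behind it and the genotypes could not be tested. The number of animals in a library is not given, and read depth is unknown. The other 5 libraries of the series were not analysed here.

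Pairs of values below give the control library first and the Cre library after it. Arid1a had 34.9 FPKM (control) and 12.3 FPKM (Cre). Of 9 sinoatrial node markers 7 were measured, with a summed level of 24.7 FPKM (control) and 29.2 FPKM (Cre). None passed 2-fold on the scale of FPKM + 1 that is used for all such counts here. In FPKM alone Tbx3 did, at 0.996 and 2.59 FPKM, a ratio of 2.60. The highest node markers were Bmp4 at 10.9 and 10.5 FPKM and Tbx18 at 4.83 and 7.03 FPKM. The pacemaker channel Hcn4 had 0.605 and 0.719 FPKM. Working myocardium had 6 of 9 markers past 2-fold, higher with Cre, against 6.08% of all measured genes. Its summed levels were 4855 and 8402 FPKM. The libraries also differed in genes outside the heart and in sex-linked genes. All 10 thymocyte markers were at least 2-fold lower in the Cre library, against 10.4% of all measured genes. The summed level of these markers was 2336 FPKM (control) and 5.31 FPKM (Cre). Xist had 0.379 FPKM (control) and 93.2 FPKM (Cre), and the Y-linked Eif2s3y had 85.8 and 0.118 FPKM. Genotype, sex and tissue makeup therefore cannot be told apart here, and in bulk RNA fewer cells of a type and less RNA per cell cannot be told apart either.

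As background, a motile cilium is built on a ring of microtubule doublets, the axoneme. Dynein motors in outer and inner arms slide the doublets against each other, and radial spokes and a central pair of microtubules coordinate the beat. Tektins lie inside the doublet walls, and intraflagellar transport carries the parts along the cilium in motile and non-motile (primary) cilia alike. The transcription factor Foxj1 switches on the motile programme together with RFX factors, which also serve primary cilia.

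Most genes of the motile axoneme were several-fold higher in the Cre library, while the 4 intraflagellar transport members, Rfx2 and Rfx3 differed by less than 2-fold. Of the 47 measured genes 34 were higher in the Cre library by at least 2-fold on the scale of FPKM + 1 (a pseudocount of 1, which understates the difference of weak genes), against 6.08% of all 13408 measured genes. Only Dnahc8 and Mns1 were at least 2-fold lower, against 10.4% of all measured genes. The median log2 ratio of FPKM + 1, Cre over control, was 1.50 over the members (quartiles 0.76 and 1.91) and -0.07 over all measured genes. A gene under 1 FPKM in 1 library can pass the minimum only through the other library. This was so for 14 members, 13 of them higher and 1, Dnahc8, lower. Among the 33 members with at least 1 FPKM in both libraries 21 were higher, against 4.93% of the 12457 genes of that kind. With a pseudocount of 5 the count of members higher was 14, against 238 of all 13408 measured genes.

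The authors' deposited table holds a test of these 2 libraries, which compares the libraries and not the genotypes. It called 1 of the 47 members significant, Dnahc8, against 0.671% of all measured genes. Unadjusted p-values in the authors' deposited table were under 0.05 for 23 members that were higher and 2 that were lower, and for 1.49% (200 higher) and 5.15% (691 lower) of the 13408 measured genes. The smallest q-value of a higher member there was 0.194, for Dnahc10.

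**Figure D1:**
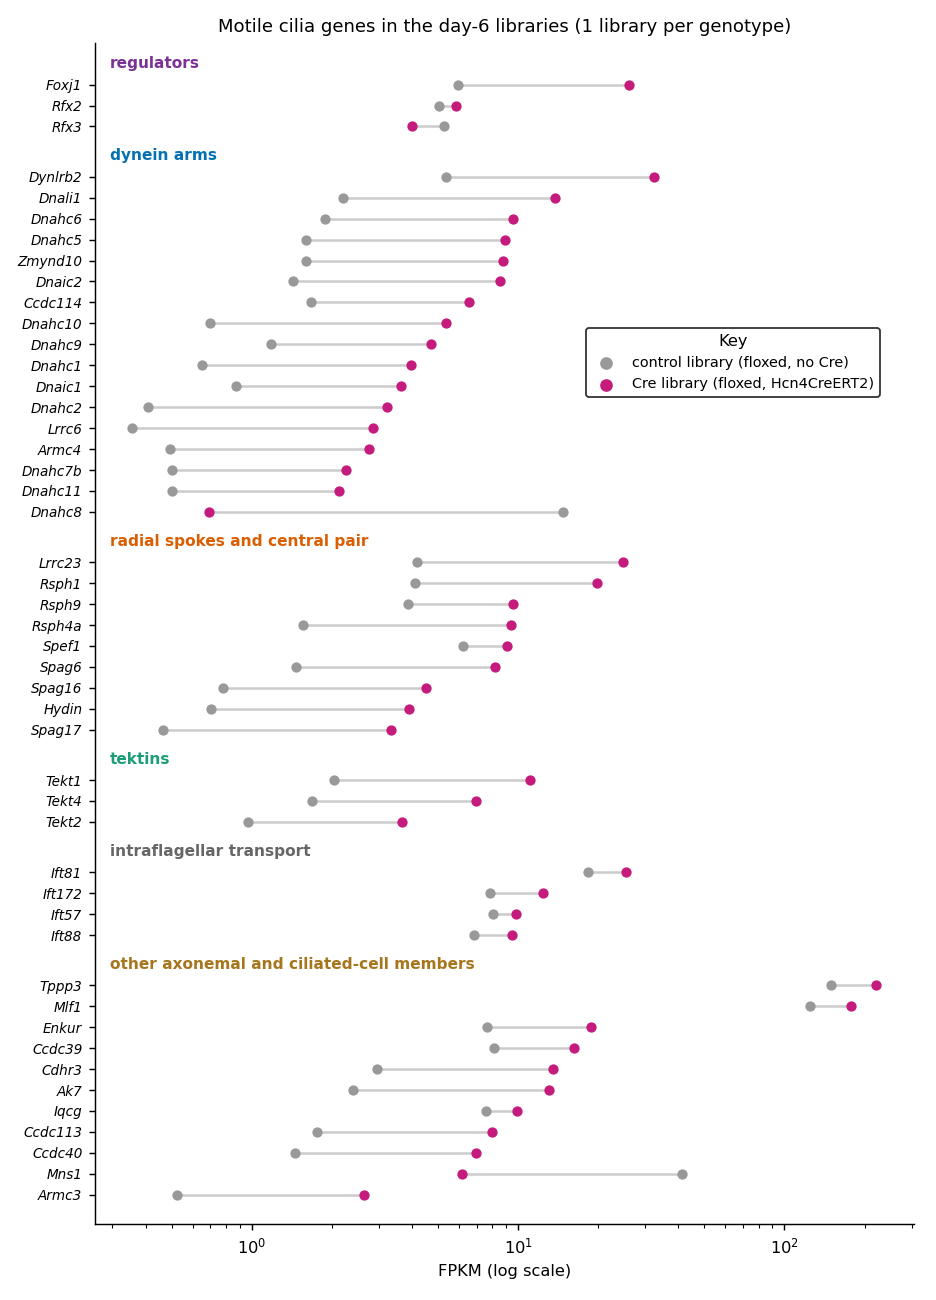
FPKM on a log scale for the 47 measured genes, grouped by role, with the control library in grey and the Cre library in magenta and a line joining the 2 values of each gene (1 library per genotype, no error bars). Most lines of the dynein, spoke and tektin groups run to the right over a similar length, those of intraflagellar transport are short, and Dnahc8 and Mns1 run to the left.

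Foxj1, the forkhead factor that drives motile ciliogenesis, had 5.96 FPKM (control) and 26.2 FPKM (Cre), a 4.40-fold difference and a log2 ratio of FPKM + 1 of 1.97. It lies on mm9 chr11:116192017-116196668. Its deposited p-value was 0.0223 and its q-value 0.539 in the authors' deposited table. Rfx2 had 5.06 and 5.83 FPKM, a log2 ratio of 0.17. Rfx3 had 5.29 and 3.99 FPKM, a log2 ratio of -0.33. Of the regulators, Foxj1 alone passed the 2-fold size.

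Dynein arm genes were higher in 16 of 17 measured members, against 6.08% of all measured genes. Their FPKM ratios lay between 3.92 and 8.0 in those 16. Of these, Dnahc1, Dnahc2, Dnahc7b, Dnahc10, Dnahc11, Dnaic1, Armc4 and Lrrc6 were under 1 FPKM in the control, so the minimum fixes their direction. Among outer arm heavy chains, the motor subunits themselves, Dnahc5 had 1.60 FPKM (control) and 8.90 FPKM (Cre). Dnahc9 had 1.18 and 4.72 FPKM, and Dnahc11 had 0.503 and 2.13 FPKM. The order Dnahc5, Dnahc9, Dnahc11 was the same in both libraries. Inner arm heavy chains spanned a similar range of levels. Dnahc6 had 1.89 and 9.60 FPKM, Dnahc10 had 0.696 and 5.36 FPKM, and Dnahc1 had 0.652 and 3.97 FPKM. Dnahc2 had 0.408 and 3.22 FPKM and Dnahc7b had 0.501 and 2.26 FPKM. Dnahc7b has close copies in the genome with which it can share reads, and Dnahc11 shares its locus row with Cdca7l, so both values are less certain.

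Dnahc8 went the other way. This outer arm heavy chain, known from sperm, had 14.8 FPKM (control) and 0.689 FPKM (Cre), 21.5-fold lower, with a log2 ratio of FPKM + 1 of -3.23. In the control library it was the most abundant heavy chain, and in the Cre library the least abundant of the 9 measured. Dnahc8 was under 1 FPKM in the Cre library and passed the minimum through the control library, so the minimum fixes its direction. Its p-value in the authors' deposited table was 0.00015 and its q-value 0.0305. The gene lies on mm9 chr17:30763880-31012209. Dnahc17, a heavy chain also known from sperm, had 0.705 and 0.207 FPKM, below the minimum, and shares its locus row with Pgs1. Of 9 male germ cell markers 1 had a row, Prm1, at 0.588 and 0.0746 FPKM. Thymocyte and cell cycle markers were also lower in the Cre library, all 10 of each list, against 10.4% of all measured genes. The part of these markers in the Dnahc8 difference was not tested.

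**Figure D2:**
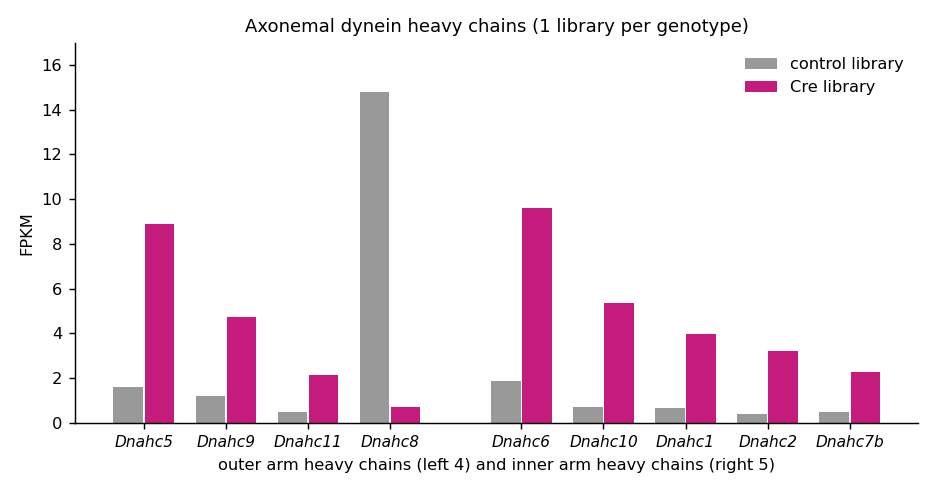
FPKM of the 9 measured axonemal dynein heavy chains, outer arm on the left and inner arm on the right, as 1 bar per library (control grey, Cre magenta, 1 library per genotype and no error bars). Bars of 8 heavy chains are taller in the Cre library, and Dnahc8 is at 14.8 FPKM (control) and 0.689 FPKM (Cre).

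The 8 other dynein arm genes were all at least 2-fold higher, with a median FPKM ratio of 5.79 against 5.08 for the 9 heavy chains. The intermediate chains of the outer arm, Dnaic1 and Dnaic2, had control levels of 0.871 and 1.42 FPKM and Cre levels of 3.62 and 8.58 FPKM. Dnali1, a light intermediate chain of inner arms, had 2.20 and 13.8 FPKM. Dynlrb2, a roadblock-type dynein light chain, had 5.37 and 32.3 FPKM, the highest Cre level of the group. Proteins that dock the outer arm were at similar ratios, with Ccdc114 at 1.67 and 6.54 FPKM and Armc4 at 0.494 and 2.75 FPKM. Factors that assemble dynein arms in the cytoplasm were too. Lrrc6 had 0.356 and 2.85 FPKM, the largest FPKM ratio of any member at 8.0, and Zmynd10 had 1.60 and 8.81 FPKM. Dnali1 and Dnaic1 share their locus rows with Gnl2 and Enho, which had control levels of 24.2 and 3.67 FPKM and Cre levels of 25.3 and 3.55 FPKM.

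Radial spoke and central pair genes were higher in 8 of 9 members, against 6.08% of all measured genes. All 9 lay above equal expression, as did 6162 of the 13408 measured genes. Of the spoke genes, Rsph1 had 4.11 FPKM (control) and 19.8 FPKM (Cre), and Rsph4a had 1.56 and 9.41 FPKM. Rsph9 had 3.86 and 9.56 FPKM, and Lrrc23 had 4.17 and 24.8 FPKM. Rsph9, at an FPKM ratio of 2.48, had the smallest ratio among the 8. Of the central pair genes, Spag6 had 1.46 and 8.22 FPKM, Spag16 had 0.783 and 4.50 FPKM, and Spag17 had 0.465 and 3.32 FPKM. Hydin, a giant central pair protein, had 0.705 and 3.90 FPKM. Spag16, Spag17 and Hydin were under 1 FPKM in the control, so the minimum fixes their direction. Spef1, which bundles microtubules, was the exception within 2-fold, at 6.22 and 9.10 FPKM.

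All 3 tektins were higher, against 6.08% of all measured genes. Tekt1 had 2.03 FPKM (control) and 11.1 FPKM (Cre), Tekt4 had 1.68 and 6.96 FPKM, and Tekt2 had 0.969 and 3.67 FPKM. Their FPKM ratios, between 3.79 and 5.44, overlapped those of the dynein and spoke genes. Tekt2 was under 1 FPKM in the control, so the minimum fixes its direction. Over the 29 measured dynein, spoke, central pair and tektin genes the median FPKM ratio was 5.53 (quartiles 4.16 and 6.02).

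None of the 4 intraflagellar transport members reached 2-fold. All 4 lay above equal expression, as did 6162 of the 13408 measured genes. Ift81 had 18.3 FPKM (control) and 25.4 FPKM (Cre), Ift172 had 7.82 and 12.4 FPKM, Ift57 had 8.08 and 9.79 FPKM, and Ift88 had 6.86 and 9.49 FPKM. Their FPKM ratios were between 1.21 and 1.59. Median ratios of the heart marker lists lay below, within and above this range. They were 1.14 for epicardium, 1.19 for sinoatrial node, 1.26 for fibroblasts, 1.50 for endothelium and 2.84 for working myocardium.

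Of the 11 remaining measured members 6 were higher, 1 was lower and 4 were within 2-fold. Over all measured genes 6.08% were higher and 10.4% lower. Ccdc40 and Ccdc39 form the ruler that spaces dyneins along the doublet. Ccdc40 had 1.45 FPKM (control) and 6.95 FPKM (Cre). Ccdc39 had 8.15 and 16.3 FPKM, a log2 ratio of FPKM + 1 of 0.92 that fell just short of the size, and it shares its locus row with Ttc14 (22.9 and 17.4 FPKM). Ccdc113 had 1.76 and 7.97 FPKM and Armc3 had 0.525 and 2.63 FPKM. Armc3 was under 1 FPKM in the control, so the minimum fixes its direction. Ak7, an adenylate kinase of the axoneme, had 2.39 and 13.1 FPKM. Cdhr3, a cadherin-related protein of ciliated airway cells, had 2.96 and 13.5 FPKM. Enkur had 7.63 and 18.7 FPKM. 1700027A23Rik, the row that RefSeq names as Pifo, had 1.61 and 9.94 FPKM, a ratio of 6.16.

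The members within 2-fold included the most abundant of the list. Tppp3, a tubulin-binding protein, had 149 FPKM (control) and 222 FPKM (Cre), and Mlf1 had 125 and 177 FPKM. Iqcg, a part of the dynein regulatory complex, had 7.58 and 9.92 FPKM and shares its locus row with Lrch3. Mns1, an axonemal protein also known from male meiosis, was lower, with 41.4 FPKM (control) and 6.16 FPKM (Cre), a 6.71-fold difference. Its row on mm9 chr9:72286335-72339766 is shared with Tex9, which had 12.3 and 4.10 FPKM, so reads of the pair may not be fully separated. The deposited p-value of Mns1 was 0.0430 and its q-value 0.729 in the authors' deposited table. As for Dnahc8, the part of the lower thymocyte and cell cycle markers in this value was not tested.

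Of the 34 higher members 28 (82.4%) had an FPKM ratio from 4 to 8, 5 had a lower ratio and Lrrc6 a ratio just over 8. The share from 4 to 8 was 34.8% among the 815 measured genes that passed the same size. A gene weak in the control needs a larger FPKM ratio to pass 2-fold on the scale of FPKM + 1. Control levels were not matched here, so part of this contrast may follow from the arithmetic. Members that were higher mostly had a low level in the control library. Of those with 1 to 5 FPKM there, 18 of 18 were higher, against 10.5% of 3206 measured genes at such levels. The 13 members under 1 FPKM in the control passed the minimum through the Cre library, which fixes their direction, and Dnahc17, at 0.705 and 0.207 FPKM, was removed by the minimum. Of the 16 members at or above 5 FPKM there, Foxj1, Dynlrb2 and Enkur were higher, against 2.84% of 9730 genes. The control level enters both quantities, so part of this arrangement follows from the arithmetic. Between transcript length and FPKM ratio Spearman's rho was 0.07 across 45 members with a length, 0.30 across the 32 of them that were higher and 0.03 across 13178 genes. These points share the same 2 libraries, and genes are not replicates.

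**Figure D3:**
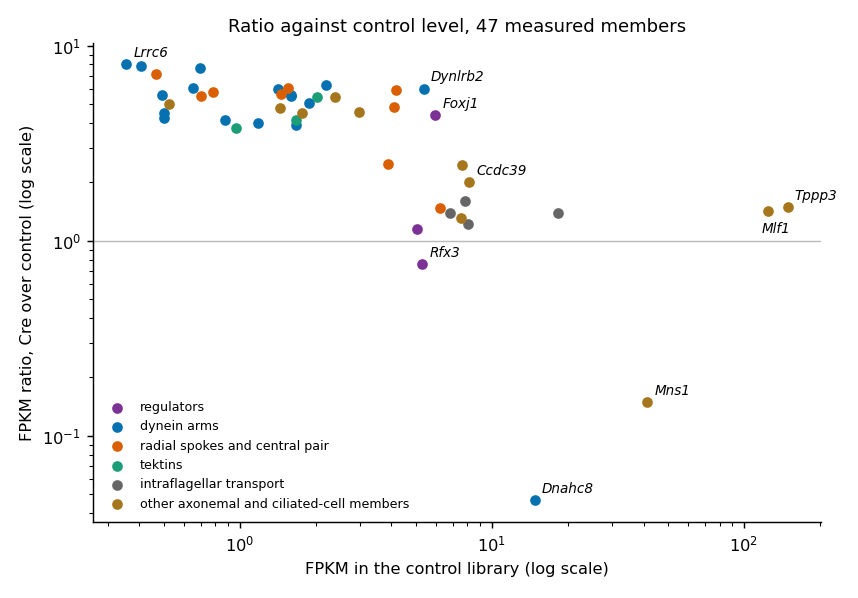
FPKM ratio, Cre over control (log scale), against FPKM in the control library (log scale) for the 47 measured members, 1 point per gene, coloured by group, with a line at equal expression. Measured members below 5 FPKM in the control mostly lie between 4-fold and 8-fold, and of the 5 members above 10 FPKM there, Ift81, Mlf1 and Tppp3 lie near equal expression while Mns1 and Dnahc8 lie far below it.

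A list of motile cilia genes outside the members was also mostly higher. Of 93 further axonemal genes listed 77 had a row and 72 were measured. Of these 57 were at least 2-fold higher, against 6.08% of all measured genes, and 1 was lower, against 10.4%. Over the 72 genes the median FPKM ratio was 4.49 and the median log2 ratio of FPKM + 1 was 1.50. Their median control level was 1.26 FPKM. Those under 1 FPKM there, down to Ttll9 at 0.365 and 1.78 FPKM, passed the minimum only through the Cre library, which fixes their direction. On the log2 scale of FPKM + 1 the largest differences were in Spata18, at 2.21 FPKM (control) and 19.5 FPKM (Cre), and in Ccdc108, at 3.01 and 19.5 FPKM. Wdr52 had 2.15 and 14.7 FPKM and Tmem212 had 2.04 and 13.6 FPKM. Wdr78 was the lower gene, at 21.0 and 6.44 FPKM.

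Genes that serve primary as well as motile cilia had medians near that of all genes. Of 23 further measured genes of intraflagellar transport and cilia motors 1 was higher and 2 were lower. Over all measured genes 6.08% were higher and 10.4% lower, and the counts of this list are near those shares. Its median log2 ratio was 0.23. Traf3ip1 had 5.92 and 16.5 FPKM, while Ift80 had 31.0 and 9.73 FPKM and Hspb11 had 29.5 and 13.9 FPKM. The BBSome is a transport adaptor, and the transition zone lies at the base of the cilium. Of 31 genes of both, 1 was higher and none was lower, against the same shares of all measured genes. The higher gene was Cc2d2a, at 3.45 and 8.15 FPKM, and the median of the list was 0.07.

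Upstream regulators of multiciliation were divided. Ccno, a cyclin-like protein of centriole amplification, had 0.511 FPKM (control) and 3.08 FPKM (Cre), and Trp73 had 0.468 and 2.10 FPKM. Both, like Ccdc67 below, were under 1 FPKM in the control, so the minimum fixes their direction. Myb, which thymocytes also express, had 164 and 6.97 FPKM, and the cell cycle factor E2f4 had 32.4 and 11.1 FPKM. Centriole genes showed a like division. Against 6.08% and 10.4% of all measured genes, 3 of 14 were higher and 5 lower. Those higher were Ccdc78, at 1.84 and 11.4 FPKM, Ccdc67, the deuterosome protein of multiciliated cells, at 0.335 and 2.62 FPKM, and Cetn4, at 2.32 and 7.97 FPKM. Those lower also serve the centriole cycle of dividing cells, among them Stil at 8.15 and 0.756 FPKM, Plk4 at 16.1 and 2.61 FPKM and Cenpj at 8.96 and 2.14 FPKM. All 10 cell cycle markers were lower as well, with Top2a at 174 and 4.37 FPKM, and their part in these values was not tested.

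Markers of other airway cells differed as well, most of them in the same direction. Beside the counts below, 6.08% of all measured genes were at least 2-fold higher and 10.4% lower. All 13 measured airway secretory markers were higher by at least 2-fold, with a summed level of 4617 FPKM (control) and 20197 FPKM (Cre) and a median FPKM ratio of 4.34. Scgb1a1, the club cell secretory protein, had 3261 and 12533 FPKM. Of 11 measured alveolar markers 8 were higher, with sums of 137.9 and 396 FPKM, of which Hopx gave 102 and 158 FPKM. Without Hopx the sums were 35.7 and 238.4 FPKM, and Sftpc, surfactant protein C, had 0.248 and 90.5 FPKM. Among 5 airway basal markers Krt15 was higher, at 10.2 and 44.3 FPKM, while Krt5 had 14.1 and 6.95 FPKM and Trp63 had 4.78 and 2.49 FPKM. Of 12 general epithelial markers 7 were higher and 2, Krt8 and Krt18, were lower. Krt8 and Krt18 had control levels of 102 and 101 FPKM and Cre levels of 50.6 and 37.3 FPKM. Thymic epithelium, which is another source of epithelial RNA, had 5 of 6 measured markers lower, with Prss16 at 198 and 0.381 FPKM. Which cells the motile cilia transcripts came from was not tested.

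**Figure D4:**
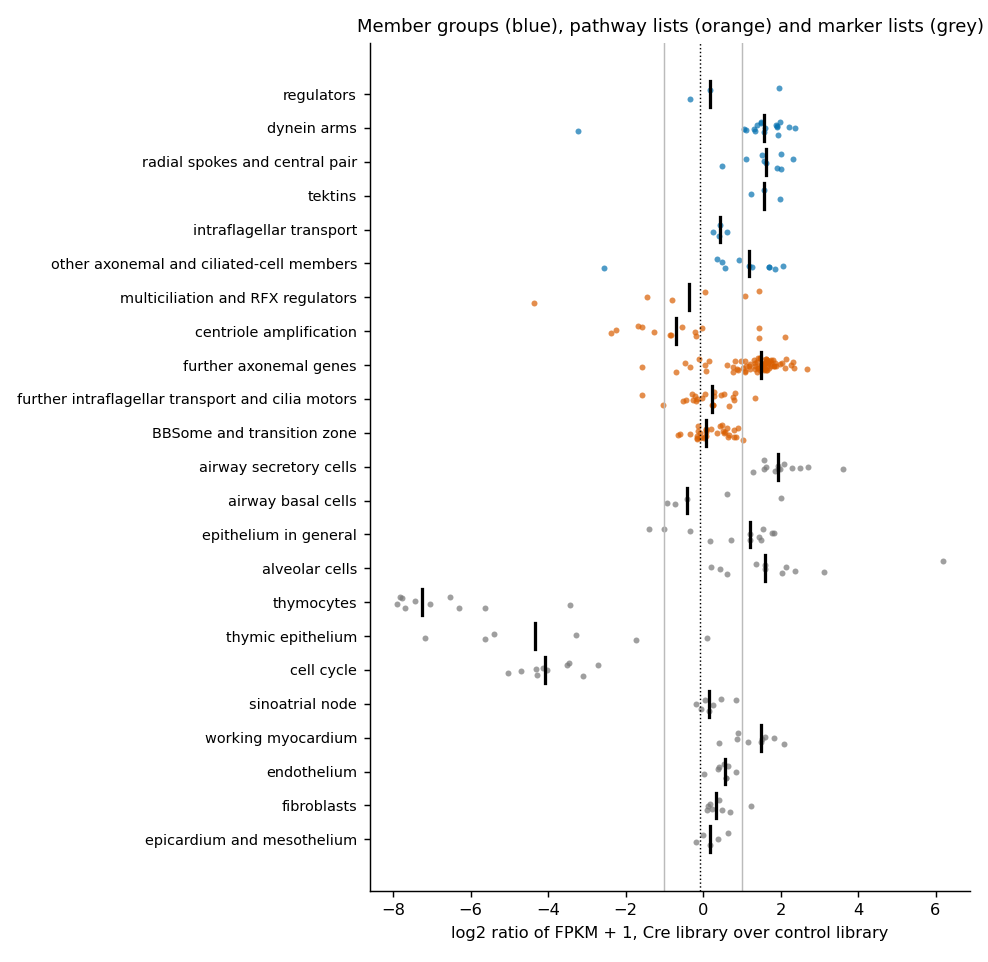
Log2 ratio of FPKM + 1, Cre over control, for each measured gene (1 point per gene) of the member groups (blue), pathway lists (orange) and marker lists (grey), with black bars at list medians, grey lines at 2-fold and a dotted line at the median of all measured genes. Dynein, spoke, tektin and further axonemal genes have medians between 1.50 and 1.63, airway secretory genes 1.94, and the intraflagellar transport and BBSome lists between 0.07 and 0.43.

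Promoter sequence was examined because most members were higher together and RFX factors are known to bind a motif called the X-box. RefSeq promoter windows of 300 bases (250 before and 50 after the start of the gene, GRCm38.p6) were found for 36 of the 47 measured members. The short X-box site GTTGCC, read on both strands, stood in a window of 21 of these 36 genes (58.3%), against 14.0% of 26742 genes with a window. It was present in 13 of the 25 higher members (52.0%) and in 8 of the 11 others (72.7%). A longer X-box core, GTTNCCATG, which contains the short site where N is G, stood in 3 of 36 members (8.33%) against 2.21% of all genes. The forkhead site GTAAACA stood in 2 members (5.56%) against 4.06%. A match is a description of letters and not of binding, base composition was not matched, and Foxj1 was among the 11 members without a window.

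The windows below were chosen after the matches were seen. They are the 3 with the X-box core, all from dynein arm genes that were higher, then Dynlrb2, the dynein arm gene with the highest Cre level, and Mns1, which was lower and holds the short site as well. Each is given 5′ to 3′ on the strand of the gene, with X-box core and short-site letters in capitals. They lie on GRCm38.p6 at chr4:125065608-125065907 (minus strand, Dnali1), chr15:28203516-28203815 (plus, Dnahc5), chr9:107547054-107547353 (plus, Zmynd10), chr8:116504765-116505064 (plus, Dynlrb2) and chr9:72438279-72438578 (plus, Mns1).
Dnali1: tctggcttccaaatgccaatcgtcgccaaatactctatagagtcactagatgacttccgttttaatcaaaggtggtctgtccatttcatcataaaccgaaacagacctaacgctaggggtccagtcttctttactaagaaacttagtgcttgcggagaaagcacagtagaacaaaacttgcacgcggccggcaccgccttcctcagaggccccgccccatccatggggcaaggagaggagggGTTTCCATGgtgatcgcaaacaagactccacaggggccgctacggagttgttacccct
Dnahc5: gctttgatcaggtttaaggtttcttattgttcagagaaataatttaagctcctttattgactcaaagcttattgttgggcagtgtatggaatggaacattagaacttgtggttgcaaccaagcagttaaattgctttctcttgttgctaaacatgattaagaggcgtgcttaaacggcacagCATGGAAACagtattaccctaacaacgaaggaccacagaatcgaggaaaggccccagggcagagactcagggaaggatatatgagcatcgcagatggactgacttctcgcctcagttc
Zmynd10: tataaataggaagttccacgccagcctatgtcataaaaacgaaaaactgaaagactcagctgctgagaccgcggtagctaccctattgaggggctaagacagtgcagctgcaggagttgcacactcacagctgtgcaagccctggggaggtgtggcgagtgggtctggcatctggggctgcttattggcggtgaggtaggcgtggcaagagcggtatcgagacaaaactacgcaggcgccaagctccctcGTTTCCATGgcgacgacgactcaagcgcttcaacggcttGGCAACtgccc
Dynlrb2: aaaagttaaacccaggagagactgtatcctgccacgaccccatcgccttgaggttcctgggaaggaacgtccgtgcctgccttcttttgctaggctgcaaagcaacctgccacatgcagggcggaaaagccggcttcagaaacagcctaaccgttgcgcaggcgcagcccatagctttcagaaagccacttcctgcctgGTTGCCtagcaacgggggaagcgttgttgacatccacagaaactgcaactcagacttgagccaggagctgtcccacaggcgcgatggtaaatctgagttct
Mns1: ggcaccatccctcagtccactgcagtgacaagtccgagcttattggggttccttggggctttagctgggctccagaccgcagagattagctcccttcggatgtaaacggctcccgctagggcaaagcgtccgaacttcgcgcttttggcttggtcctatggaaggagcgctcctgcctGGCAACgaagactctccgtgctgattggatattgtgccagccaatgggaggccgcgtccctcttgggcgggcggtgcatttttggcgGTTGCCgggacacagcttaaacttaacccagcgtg
In Dnali1 the core starts at base 243 of the window, counted from its 5′ end, and in Dnahc5 at base 183, on the opposite strand. Zmynd10 has the core at base 251, the start of the gene, and a short site at base 290. Dynlrb2 has its short site at base 200, and Mns1 has short sites at bases 179 and 266.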

How the data were processed

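Poly-A RNA of mouse sinoatrial node was sequenced by the authors, with 1 library per genotype at day 6. Per the submitters' processing notes, TopHat, Bowtie and Cufflinks were used with mm9. The sources used here do not give tool versions, annotation, strand use or library scaling. For each gene the table deposited by the authors gives 1 value per library, taken as FPKM from the Cufflinks column layout since neither labels nor headers name the unit, and the authors' own log2 fold change, their score of the test, p-value and q-value, per the file headers. The deposited log2 fold change matches the FPKM columns within 1.38e-05. Depth is unknown, so no counting interval is given.

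Here 2 rows with an uncompleted comparison and 31 small-RNA rows were left out. Log2 ratios of FPKM + 1 were computed in Python 3.11.15 with pandas 2.3.3, where both libraries averaged at least 1 FPKM, and 2-fold was the size rule. The calculation was checked on simulated data. Members, lists and alternatives were chosen with earlier results of these data known. Every measured member could be named, with the 4 largest ratios per pathway list and the 4 highest levels per marker list. Ccdc67, Cetn4 and Wdr78 were named after their values were seen, as were single markers outside that rule. Gene loci are mm9 from the table. RefSeq promoter windows are GRCm38.p6 and were matched by accession. Transcript lengths came from GENCODE M21 by accession.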

Additional observations from a re-analysis of the deposited data

How the results depend on the processing

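Among the 7 alternatives, the count of members at least 2-fold higher was 34 with a pseudocount of 0.1, with no minimum and in TPM, 35 with both libraries at the same upper quartile, and 25 when ratios were centred on endothelial, fibroblast and epicardial markers. It was 14 with a pseudocount of 5 and 14 of 26 members with a minimum mean of 5 FPKM. Over all genes 238 of 13408 and 449 of 9839 were higher in these 2 settings. Both settings weigh down or leave out weak genes. The count of members lower was 2 in all 7 alternatives. The median log2 ratio lay between 1.09 and 2.12, but was 0.67 with a pseudocount of 5, under 2-fold. No member that passed 2-fold changed direction in any alternative, but none could have. A pseudocount or a minimum cannot turn a direction around, and the scaling and centring settings moved members by less than 2-fold. The alternatives are therefore no test of direction. The pseudocount of 5 took 20 members below 2-fold and the centring took 9, and the upper quartile brought Ccdc39 above it. Over all genes, the upper quartile took the median from -0.07 to 0.13, with 1300 genes higher and 1089 lower in place of 815 and 1396, and the centring moved it to -0.48, with 324 higher and 2922 lower. No paired analysis was possible because each genotype has 1 library.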

Other observations

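The p-values in the authors' deposited table differed at like folds between genes that share a locus row and genes with a row of their own. Among the 34 higher members, the 4 that share a locus row (Dnahc11, Dnaic1, Dnali1 and Spag17) had a median p-value of 0.249 in the authors' deposited table and none under 0.05. The 30 others had a median of 0.0296, with 76.7% under 0.05. Dnali1 had a 6.26-fold difference with a p-value of 0.283, and Spag17 a 7.15-fold difference with a p-value of 0.281, while Dnahc9 had a 3.99-fold difference with a p-value of 0.0317, all p-values from the authors' deposited table. Across all measured genes with a deposited log2 fold change of 2 to 3 in size, the median absolute test statistic was 1.34 for 87 genes in shared loci and 2.32 for 458 genes in loci of their own. The share with a p-value under 0.05 was 20.7% in the first set and 67.5% in the second. The reason for this difference was not tested.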
